A study of Mus musculus with 8 samples.

Results

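The comparison was of the testis with the ovary at embryonic day 12.5 (E12.5), described across genes. It used 4 of the 8 arrays of the study, chosen by their labels: the male (XY) and the female (XX) gonad of wild type (WT) embryos and of Wnt4 knock-out (KO) embryos, with 1 array for each. The other 4 arrays held the same groups at E14.5. Male minus female was taken in each genotype, so the WT pair and the KO pair served as repeats of the sex difference, while no group had a replicate of its own. Both KO gonads carried the loss of Wnt4, and nothing else sets the pairs apart in the labels. Embryos had been picked by their morphology, and the labels do not say whether gonads were pooled, which strain they came from or how the KO allele was made. Values are log2 signals with each array centred on its median; those below a floor of 7.24, the 40th percentile of the 4 arrays, were set to the floor, and genes of the X and Y chromosomes were left out of the tests. A log2 difference of 1 is a 2-fold difference.

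The gonad of both sexes starts from a shared primordium of somatic cells and germ cells. In XY embryos Sry switches on Sox9 in supporting cells, which become Sertoli cells, enclose the germ cells in cords and send out signals such as anti-Müllerian hormone and desert hedgehog to the rest of the testis. In XX embryos WNT4 and R-spondin signalling through beta-catenin supports the pregranulosa fate of the same lineage, with follistatin among the genes that depend on it, and germ cells later enter meiosis.

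The targeted gene and the sex-linked genes were read first. The Wnt4 signal was 9.52 in the WT male, 8.60 in the KO male, 10.45 in the WT female and 8.85 in the KO female, so it was lower in the KO gonad of each sex but above the floor on every array. Xist, which coats the inactive X chromosome, was at 7.97 and 7.95 in the females and at 4.70 and 4.33 in the males. The Y-linked Eif2s3y was at 8.03 and 8.39 in the males and at 5.62 and 6.30 in the females, and Uty was also higher in both males. Kdm5d, also Y-linked, was below the floor on every array and did not go with sex, at 6.21 and 6.06 in the males and 6.13 and 6.29 in the females. Xist, Eif2s3y and Uty went with the sex on all 4 labels. Nr5a1, Gata4 and Wt1, transcription factors that define the gonadal ridge, lay between 9.45 and 11.46 on every array. Several technical readings also went with sex. The mean of 9 hybridisation control probe sets, added from outside the sample, was 9.74 and 10.04 in the males against 9.11 and 9.09 in the females, a male minus female difference of 0.64 in the WT pair and 0.95 in the KO pair. The gap between the 3′ and 5′ probe sets of beta-actin, which grows with RNA breakdown, was 0.96 and 1.10 in the males against 0.48 and 0.48 in the females. The 5′ probe set of 18S ribosomal RNA was at 9.16 on the KO male array and at 6.81 to 7.24 on the others. Deposited array medians were 0.14 higher in males before centring. Scaling to the hybridisation controls would move male minus female values down by these amounts in the pairs and by 0.79 in their mean, and leaving out the centring would move them up by 0.14. The part of these readings in the results was not tested.

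Across 7381 autosomal probe sets, limma called 1925 at an adjusted p under 0.05, of which 972 (13.2%) were higher in males and 953 (12.9%) were higher in females; 2717 had an unadjusted p under that value. Without centring the called probe sets split into 2397 higher in males and 403 higher in females. With 1 residual degree of freedom the fit drew its error wholly from the spread shared by probe sets of like signal, so every SE lay between 0.055 and 0.11 and carried no spread between embryos. Without any 1 of the 4 arrays, in fits on sex alone, 0 probe sets passed the adjustment, and 1700 to 2089 had an unadjusted p under 0.05. An exact permutation test of 2 arrays against 2 cannot give a p below 0.333. A stricter description was therefore also used, a difference of at least 1.5-fold (0.585 on the log2 scale) in the same direction in both genotypes. It held for 85 probe sets (1.15%) higher in males and 24 (0.325%) higher in females, for 61 and 19 genes. Both males lay above both females, or below them, for 66.3% of all probe sets, so such separation alone sets no gene apart here. Each gene is given by its brightest probe set over the 4 arrays, and disagreeing probe sets are named for some genes only. Of the 5671 genes so taken, 705 were called higher in males and 712 lower, the shares to set beside the counts of each list.

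Genes of the Sertoli lineage were among those with the widest sex differences, with Cst9 and Aard the first in rank. Of the 31 genes in the Sertoli list, 13 could be tested; 11 of these were higher in males, 0 were lower, and 2 did not pass. At least 1.5-fold in both genotypes held for 7 of the 13. Of all 5671 genes, 705 were called higher in males and 61 were past this limit. The list holds Cst9, Aard and Amh, markers of this comparison, and was drawn up with earlier results of these data known. Its counts therefore describe the list and are no test of it. The median male minus female difference of the list was 0.91, against -0.01 over all 5671 genes tested. It was 1.13 in the WT pair and 0.90 in the KO pair. Sox9 and 11 other members had no probe set, and Sry, on the Y chromosome, was below the floor on all 4 arrays.

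Cst9, a cystatin of the testis, was at 9.57 in the WT male and 9.57 in the KO male, at the floor in the WT female and at 7.28 in the KO female. Aard, an alanine- and arginine-rich protein of the early testis, was at 10.84 and 10.86 in the WT and KO males and at 8.70 and 8.67 in the females. Amh, the Sertoli hormone that removes the Müllerian duct, was at 9.45 and 9.30 in the males and at 8.08 and 8.09 in the females. In each of these 3 genes the males lay together and apart from the females, with little difference between the genotypes. The fitted differences were 2.31 ± 0.11 (SE) for Cst9, with 1 array at the floor, 2.17 ± 0.11 for Aard and 1.29 ± 0.11 for Amh. Amh and Aard kept a signal well above the floor in both females. Col9a3, a chain of type IX collagen, was at 9.77 and 9.62 in the males against 8.11 and 8.12 in the females. Its partner chain Col9a2 differed by 1.01 in the WT pair and 0.99 in the KO pair.

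Ptgds, the synthase of prostaglandin D2, which can recruit further Sertoli cells, was read by 3 probe sets. The brightest was at 10.78 and 10.87 in the males and 9.94 and 9.97 in the females, a fitted difference of 0.87. The other probe sets gave 2.23 and 1.47, so the direction was shared and the size was not. Gatm, an enzyme of creatine synthesis, was 1.13 and 0.99 higher in males in the WT and KO pairs. Vnn1, a pantetheinase, was at 9.46 in the WT male and 8.67 in the KO male against 8.22 and 8.09 in the females, and its pair difference fell just short of the 1.5-fold limit in KO gonads. Inhbb, the beta B subunit of activin and inhibin, differed by 0.92 in the WT pair and 0.47 in the KO pair. Gdnf, a growth factor for germline stem cells, and Clu, a secreted chaperone, passed with fitted differences of 0.53 and 0.44. Dmrt1, needed to keep Sertoli identity later, differed by -0.023 and -0.027 in the pairs and did not pass.

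The promoters of Cst9 and Ptgds are shown because they were the tested Sertoli genes whose window held the letters ACAAAG, a core sequence that SOX proteins can bind. The windows run from 250 bases before the start to 50 bases from it, 5′ to 3′ on the gene's strand, from RefSeq on build GRCm38.p6. Capitals mark ACAAAG or its reverse complement.
Cst9: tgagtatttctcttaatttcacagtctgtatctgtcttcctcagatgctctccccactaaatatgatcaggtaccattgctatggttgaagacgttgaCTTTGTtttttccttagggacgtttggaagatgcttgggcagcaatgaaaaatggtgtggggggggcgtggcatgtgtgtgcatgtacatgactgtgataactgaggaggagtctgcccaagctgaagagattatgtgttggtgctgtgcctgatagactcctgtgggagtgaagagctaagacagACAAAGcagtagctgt
Ptgds: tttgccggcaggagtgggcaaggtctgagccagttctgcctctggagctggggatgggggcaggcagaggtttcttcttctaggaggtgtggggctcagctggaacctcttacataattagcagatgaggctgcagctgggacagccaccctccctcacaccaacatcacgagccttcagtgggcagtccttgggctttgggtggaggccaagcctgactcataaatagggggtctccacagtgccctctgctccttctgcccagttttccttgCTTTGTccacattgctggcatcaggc
The Cst9 window is chr2:148834897-148835196 on the plus strand, and its matches begin 152 bases before the start and 34 bases after it. The Ptgds window is chr2:25469700-25469999 on the minus strand, with 1 match 24 bases after the start. Of the 13 tested Sertoli genes, 6 had a promoter in the table and 2 of those held the letters on either strand. Among genes at least 1.5-fold higher in males in both genotypes it was 8 of 42, and among those higher in females 2 of 17. Among all genes tested it was 734 of 4560 (16.1%), and 18.7% of all tabulated promoters held the letters. A match describes letters only and is not a binding site.

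**Figure D1:**
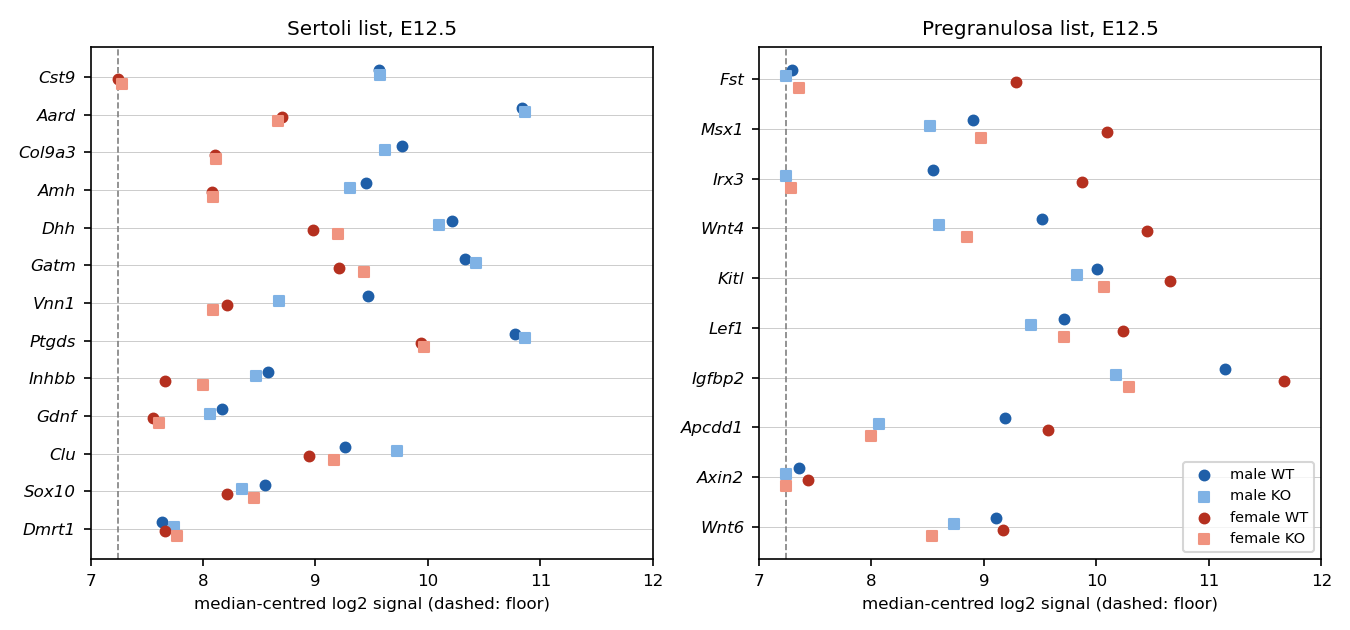
Median-centred log2 signal of the tested Sertoli (left) and pregranulosa (right) genes on the 4 E12.5 arrays; each point is 1 array, circles are WT, squares are KO, blue is male, red is female, and the dashed line is the floor of 7.24. In the Sertoli panel both males sit right of both females for 11 of 13 genes, whereas in the pregranulosa panel the WT female stands alone at the right for Fst, Msx1 and Irx3.

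In the pregranulosa list the calls were on the female side. Of 18 genes listed, 10 could be tested. Of these, 7 were lower in males and 0 were higher, beside 712 and 705 of all 5671 genes. At least 1.5-fold lower in both genotypes held for 0, beside 19 of all genes. In the WT pair 5 of the 10 were at least 1.5-fold lower in the male, beside 79 of all 5671 genes. In the KO pair 0 were, beside 49 of all genes. The median difference was -0.59 in the WT pair and -0.11 in the KO pair. The KO pair values of Fst and Irx3 in these counts and medians are bounds, since the KO male was set to the floor. Without the floor Fst lay at about the 1.5-fold limit in the KO pair. The 7 calls rested on the pooled error: with no genotype term, which lets the distance between WT and KO count as error, 0 of the 10 passed, and with all 8 arrays 0 passed, whereas 10 of 13 Sertoli genes passed in each of those fits. Whether the pairs differ in this list was not tested, since each pair is 1 array against 1.

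Fst, which encodes the activin antagonist follistatin, was at 9.28 in the WT female and at 7.35 in the KO female, 7.30 in the WT male and the floor in the KO male. Irx3, an Iroquois transcription factor of pregranulosa cells, was at 9.87 in the WT female and 8.55 in the WT male, at 7.29 in the KO female and at the floor in the KO male. For both genes the WT female was the highest of the 4 arrays. The KO male was below the floor for both, so the KO pair differences of -0.11 for Fst and -0.047 for Irx3 are bounds; the values under the floor give -0.585 (6.77 against 7.35) and -0.098. The fitted difference was -1.05 ± 0.10 for Fst and -0.69 ± 0.10 for Irx3. A fit without the WT female has no genotype term and sets a WT and a KO male against the KO female, so it mixes genotype with sex; it gave -0.085 for Fst and 0.61 for Irx3, while the female was higher in both pairs. The adjusted p with no genotype term was 0.177 for Fst and 0.541 for Irx3. Wnt4 is itself a member of the list, and its low KO values are set by the design. Msx1, a homeobox gene that responds to BMP signals, was at 10.09 in the WT female, 8.98 in the KO female, 8.90 in the WT male and 8.52 in the KO male. Its order was the same in both pairs, with the female higher by 1.19 and by 0.46. Kitl, the ligand of the KIT receptor on germ cells, was lower in males by 0.65 and 0.24, and Lef1, a transcription factor of the Wnt pathway that is also one of its targets, by 0.53 and 0.29. Igfbp2 was at 11.67 and 11.15 in the WT female and male and at 10.29 and 10.17 in the KO female and male, so genotype separated its values more than sex, and the female was higher in both pairs. Apcdd1, a Wnt inhibitor, went with genotype in the same way, at 9.57 and 9.19 in the WT female and male against 8.00 and 8.07 in the KO. Rspo1 has a missing value in the KO male and was at 7.64 in the WT male, 8.14 in the WT female and 8.56 in the KO female. Foxl2 had no probe set.

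**Figure D2:**
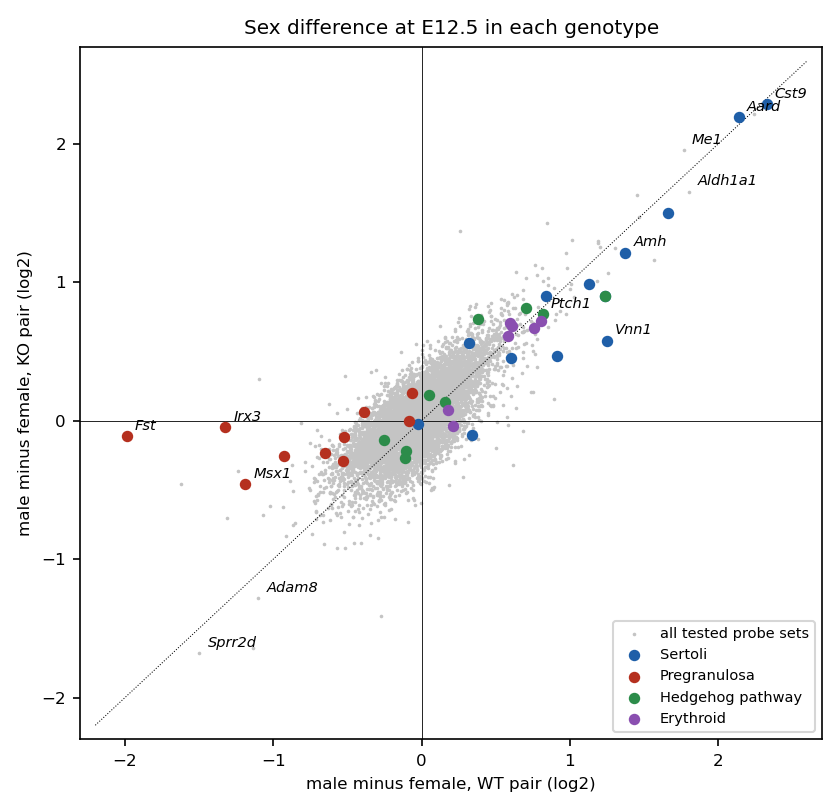
Male minus female log2 difference at E12.5 in the KO pair (vertical) against the WT pair (horizontal) for all 7381 tested probe sets in grey, with 4 gene lists in colour by 1 probe set per gene; the dotted line marks equal differences. The Sertoli, hedgehog and erythroid genes that passed lie on the male side in both pairs, while Fst and Irx3 lie at -1.99 and -1.33 in the WT pair and at -0.11 and -0.047 in the KO pair, where the KO male is set to the floor (-0.585 and -0.098 without it).

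The hedgehog pathway carries a signal from Sertoli cells to the interstitial cells outside the cords. Dhh, the ligand, was at 10.22 and 10.10 in the males and 8.98 and 9.20 in the females, and its second probe set gave a like difference (1.07 and 1.09). Ptch1, the receptor that is itself switched on by the signal, was at 9.82 and 9.91 in the males and 9.001 and 9.15 in the females by its brighter probe set, and its second gave 0.38 and 0.28. Gli1, a transcription factor and target of the pathway, was at 9.07 and 9.28 against 8.36 and 8.46. Ligand, receptor and target were thus all higher in both males than in both females. Gli2, a further mediator, was higher by 0.38 and 0.73. Of 9 tested members these 4 were higher in males and 0 lower, beside 705 and 712 of all 5671 genes. At least 1.5-fold in both genotypes held for 3, and Smo, Gli3, Gas1, Shh and Ihh did not pass. All 4 also passed with all 8 arrays, with an adjusted p of 0.0374 for Dhh, 0.028 for Ptch1, 0.0395 for Gli1 and 0.0391 for Gli2.

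In the stromal list 9 of 25 tested genes were higher in males, 1 was lower and 15 did not pass, beside 705 of all 5671 genes higher and 712 lower. The list's median was 0.23, and with all 8 arrays 6 were higher and 1 lower. Col1a1, the main fibrillar collagen chain of mesenchyme, was at 12.08 and 12.39 in the males and 11.37 and 11.36 in the females. By its brightest probe set it was the 1 member past 1.5-fold in both genotypes. Its second probe set gave 0.327 in the WT pair and 0.682 in the KO pair. Dlk1, a membrane protein of interstitial progenitors, was higher by 0.53 and 0.88, and Nr2f2, a nuclear receptor of stromal progenitors, by 0.65 and 0.53. Col1a2 and Cxcl12 passed by their brightest probe set with 0.53 and 0.59, but a second probe set gave -0.44 and -0.057. Mgp, a matrix inhibitor of calcification, was lower in males by 0.37 and 0.36. Pdgfra, Lum and Postn did not pass. In bulk gonads, more cells of a type and more RNA in each cell cannot be told apart.

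Of 13 basement membrane genes 5 were higher in males and 0 lower, beside 705 and 712 of all 5671 genes. With no genotype term 5 were higher and 1 lower, and with all 8 arrays 4 and 0. Col4a1, a chain of type IV collagen, was at 11.19 and 11.37 in the males and 10.44 and 10.68 in the females. Col4a2 differed by 0.58 and 0.49, and Sparc, which binds collagen IV, by 0.58 and 0.86. Of the laminin chains Lamb2 passed, higher in males by 0.23 and 0.44, and Lama1, Lama4, Lama5, Lamc1 and, by its brighter probe set, Lamb1 did not; the second probe set of Lamb1 passed, higher by 0.37 and 0.53. All 4 tested probe sets of Col18a1, whose end fragment is endostatin, were higher in males, by 0.41 to 0.94, while a further one, below the floor, was lower by 0.15 and 0.31. Fbln2, a matrix glycoprotein, was not in a list and was at 10.70 and 10.83 in the males against 9.72 and 9.73 in the females.

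Vessel genes differed by less. In the endothelial list 7 of 20 were higher in males and 0 lower, beside 705 and 712 of all 5671 genes. The list's median was 0.19, and none reached 1.5-fold in both genotypes. Tie1, a receptor of endothelial cells, was higher by 0.43 and 0.59, but its second probe set gave 0.015. Cd34 and Sox18 also passed by their brightest probe set, while their second gave 0.203 and 0.202 and did not pass. Cdh5, the endothelial cadherin, was higher by 0.31 and 0.58, and Kdr, the main VEGF receptor, by 0.27 and 0.47. With all 8 arrays 2 of the 20 passed. None of 10 arterial and Notch genes passed, and Vegfa differed by 0.009 and 0.25. In the erythroid list 5 of 7 were higher in males and 0 lower, with a median of 0.65. Hba-a1, the adult alpha globin, was at 14.45 and 14.47 in the males and 13.83 and 13.79 in the females, and Hba-x, the embryonic one, differed by 0.76 and 0.67. Slc4a1, the anion exchanger of the red cell membrane, differed by 0.60 and 0.71. The summed signal of the 7 genes was 16.003 and 15.96 in the males and 15.36 and 15.32 in the females. Its part in the endothelial and stromal values was not tested.

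**Figure D3:**
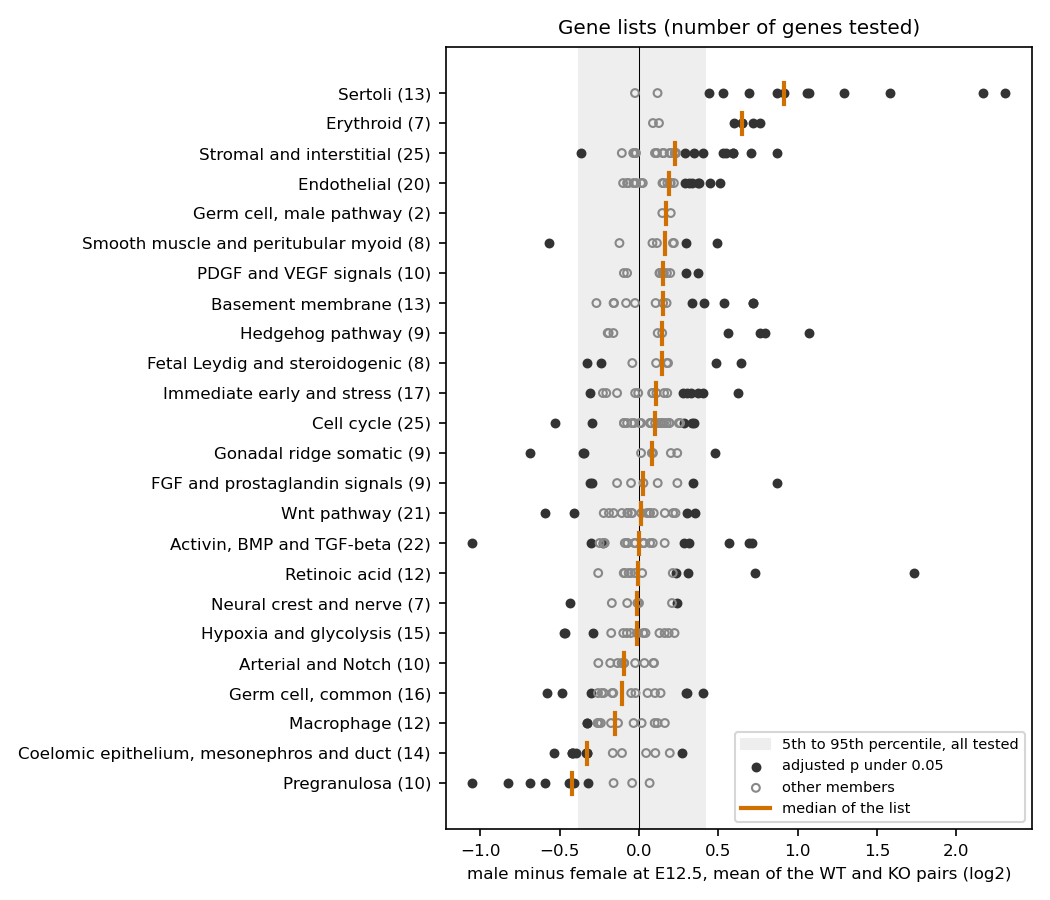
Male minus female log2 difference at E12.5, as the mean of the WT and KO pairs, for every tested gene of each list; filled points passed an adjusted p of 0.05, open points did not, the orange bar is the list's median and the grey band spans -0.38 to 0.41, the 5th to 95th percentile of all tested probe sets. The band is of single probe sets and no range for a median; the medians are 0.91 for the Sertoli, 0.65 for the erythroid and -0.43 for the pregranulosa list.

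In the steroidogenic list 2 of 8 tested genes were higher in males and 2 were lower, 2 and 0 with no genotype term, and 0 and 0 with all 8 arrays. Beside these stood 705 and 712 of all 5671 genes, 630 and 587 with no genotype term, and 415 and 384 with all 8 arrays. Cyp17a1, which makes androgen precursors, was at 8.32 and 8.25 in the males and 7.58 and 7.70 in the females. Insl3, a hormone of Leydig cells, was below the floor on every array. Cyp11a1 and Star, which act at the first steps of steroid synthesis, went with genotype: Star was at 8.20 in the KO male and 8.35 in the KO female, at 7.30 in the WT male and at the floor in the WT female. Cyp21a1, an enzyme of the adrenal cortex, was at 9.02 and 9.21 in the males and 9.37 and 9.51 in the females. Mc2r of the same list lay closer to the floor, at 7.25 and 7.73 in the males and 7.58 and 7.89 in the females. Whether adrenal cells were included was not tested.

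Among regulators of the gonadal ridge, Nr5a1 was at 11.39 and 11.46 in the males and 10.92 and 10.97 in the females, and its 3 probe sets agreed on 0.43 to 0.55. Lhx9, a homeobox gene of the coelomic epithelium, went the other way, at 7.50 and 7.92 in the males against 8.36 and 8.43 in the females. Gata4, Wt1 and Tcf21 did not pass. Of 14 tested genes of duct and surface epithelium 8 were lower in males and 1 higher, beside 712 and 705 of all 5671 genes. The list's medians were -0.46 in the WT pair and -0.11 in the KO pair. Pax8, of the mesonephric and Müllerian ducts, was lower by 0.56 and 0.50, and the keratin Krt18 by 0.50 and 0.36. These calls too thinned out in the other fits, to 3 with no genotype term and 0 with all 8 arrays. Cdh16, a cadherin of kidney tubules, was at 9.59 to 10.07, above the floor on all 4 arrays, and whether duct cells were included was not tested.

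Germ cell genes did not shift as a group. Of 16 tested, 3 were higher in males, 3 were lower and 10 did not pass, beside 705 higher and 712 lower of all 5671 genes. The list's median was -0.11, with 0.029 in the WT pair and -0.19 in the KO pair. None was at least 1.5-fold apart in both genotypes. Pou5f1, the pluripotency factor kept by early germ cells, was at 9.28 and 9.23 in the males and 9.15 and 9.16 in the females. Dazl, an RNA-binding protein that licenses germ cells for sexual development, was lower in males by 0.45 and 0.52 by its brighter probe set, and its second gave 0.035. Ifitm3, a membrane protein of early germ cells also made by other cells, was lower in males by 0.46 and 0.69. Utf1 was higher by 0.32 and 0.28. Dppa5a and Lefty1 had opposite signs in the pairs, with Lefty1 at 8.39 in the WT male, 8.28 in the KO male, 7.78 in the WT female and 8.61 in the KO female. Of the male germ cell list only Lefty1 and Dnmt3a could be tested, and neither passed. None of the 7 meiosis and oocyte genes with a probe set could be tested; the highest value among their probe sets was 6.76, below the floor. Stra8, which starts meiosis, was at 5.88 and 5.48 in the females and 5.31 and 5.32 in the males.

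Outside the cell type lists, the enzymes Aldh1a1, Me1, Gstm2 and Gstm6 were among the genes with the widest male-side differences. They are described singly, and no shared function was tested. Aldh1a1, which makes retinoic acid, was at 11.69 and 11.61 in the males and 9.88 and 9.95 in the females. Me1, the malic enzyme that supplies NADPH, was at 9.43 and 9.60 against 7.66 and 7.65. The glutathione transferase Gstm2 was at 11.60 and 11.58 against 10.59 and 10.27, while its second probe set gave -0.22. Gstm6 and Gstm1 were also past 1.5-fold in both genotypes by their brightest probe set. The second probe set of Gstm6, at the floor in both females, gave at least 0.891 in the WT pair and 0.155 in the KO pair. Gstm genes are close copies that can share probes, so their values are not independent. Tent5c, a poly(A) polymerase, differed by 1.19 and 1.30, Tm9sf3 by 1.19 and 1.29, and Kcnk2, a potassium channel at the floor in both females, by at least 0.999 and 0.952. Of the retinoic acid list, 4 of 12 were higher in males: Aldh1a1, its neighbour in the family Aldh1a7, and the receptors Rara and Rarg. This count stood beside 705 of all 5671 genes, and the median of the retinoic acid list was -0.003.

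On the female side 24 probe sets were past 1.5-fold in both genotypes, against 85 on the male side; in the WT pair alone it was 110 against 115 and in the KO pair alone 76 against 205. Sprr2d, a small proline-rich protein of epithelia, was at 9.13 in the WT female and 8.92 in the KO female, at 7.63 in the WT male and at the floor in the KO male. Adam8, a membrane protease, was at 8.92 and 8.97 in the females against 7.82 and 7.69 in the males. For both genes the females lay above the males in each pair. Kyat3, an enzyme of tryptophan breakdown, was higher in females by 0.92 and 0.83. Gbp2 and Gbp2b, interferon-induced GTPases, were at the floor in both males and at 8.31 and 7.92, and at 8.09 and 7.98, in the females. Edn1, the vasoconstrictor endothelin, was higher in females by 0.66 and 0.89. Cfap20, Aph1a, Saysd1, Polr2e, Gfra3, Plcg2, Calb1, Lmo7 and Atp5e made up the rest of the first 15, with smaller pair differences of 0.62 to 0.75. None of the first 15 was a pregranulosa list gene.

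Of the other signals, Tgfb2 and Tgfb1 were higher in males by 0.56 and 0.87 and by 0.50 and 0.63. The Wnt pathway list moved little, with 2 of 21 higher and 2 lower. Cdkn1a, an inhibitor of the cell cycle, was lower in males by 0.74 and 0.33, while 20 of 25 cell cycle genes did not pass. In the macrophage list 2 of 12 were lower in males. None of the 15 tested hypoxia and glycolysis genes was higher in males, and Bnip3, Ndrg1 and P4ha2 were lower. The second probe set of Ndrg1 did not pass, at -0.455 in the WT pair and -0.048 in the KO pair. Among immediate early and stress genes, which respond to handling, 6 of 17 were higher in males and 1 lower, with Nr4a1 at 8.15 and 8.13 against 7.46 and 7.57. The remaining lists gave 2 of 8 smooth muscle, 1 of 7 nerve, 2 of 9 FGF and prostaglandin, 2 of 10 PDGF and VEGF and 5 of 22 activin, BMP and TGF-beta genes higher in males. In the same order 1, 1, 2, 0 and 3 were lower in males. Of all 5671 genes 705 were higher and 712 lower.

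The same contrast at E14.5 was set beside these values, with a floor of 6.99 over the 8 arrays. The E14.5 labels were less well matched by the data: the WT female array of that stage had Xist at 7.10 and also the male-type Eif2s3y at 7.63, against 4.86 in the KO female, and Irx3 was at 7.77 in the KO male against 6.57 in the WT male. Pair differences at E14.5 are therefore those of the arrays so labelled. Both E14.5 male arrays had stood apart from the rest in earlier results of these data. Technical readings of this stage went with sex too. Hybridisation controls were at 9.73 and 9.84 in the males against 8.63 and 8.80 in the females. Deposited medians were 7.08 and 7.04 against 7.42 and 7.48. The part of these readings in the changes between stages was not tested. By the interaction term of a fit to all 8 arrays, 66.5% of 8191 probe sets changed their sex difference between the stages at an adjusted p under 0.05; 4723 probe sets did so without the WT female and 4760 without the KO male array of E14.5, against 5446 with them. Of the 61 genes past 1.5-fold on the male side at E12.5, both E14.5 pairs kept the sign for 35 and had the opposite sign for 14. Of the 19 higher in females these counts were 9 and 4. No such counts over all genes were set beside them, so they describe these genes only. Both sets were chosen by their E12.5 values, which favours a smaller or turned difference at E14.5. Amh differed by 1.58 and 1.27 at E14.5 and Cst9 by 1.84 and 2.07, close to E12.5 (adjusted p of the change 0.532 and 0.29). Aard was at -0.055 and 0.71 (adjusted p 0.0118), with the labelled WT female at 9.87. The brighter probe set of Ptch1 turned to -1.14 and -1.28 (adjusted p 0.000411), but the second stayed higher in males, at 0.88 and 0.42 (adjusted p 0.116), so the direction at E14.5 is unsettled; Gli1 was at 0.89 and 0.35. Kitl widened to -3.41 and -1.99 (adjusted p 0.00469), where -3.41 is a bound because the WT male, at 6.23, was under the floor. Cyp17a1 reached 1.42 and 3.05, but the change did not pass (adjusted p 0.1). For Cyp17a1 the labelled WT female was at 10.36 and the KO female at 8.135.

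**Figure D4:**
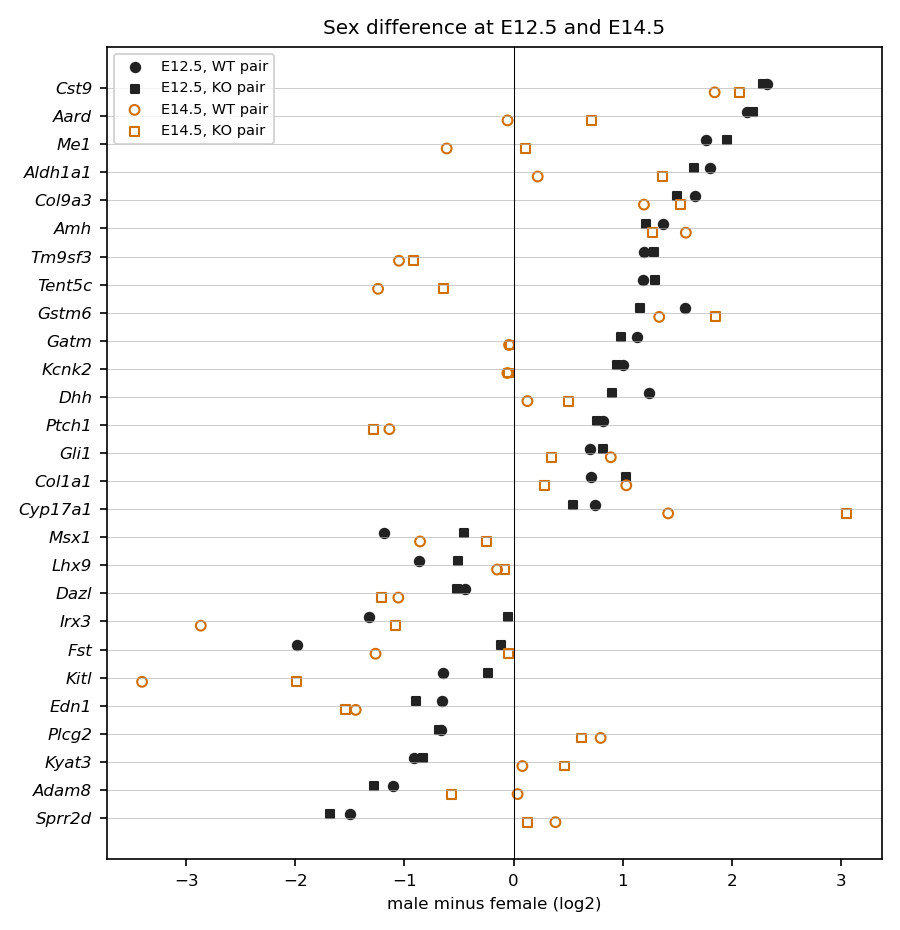
Male minus female log2 difference at E12.5 (filled) and E14.5 (open) in the WT pair (circles) and the KO pair (squares) for 27 genes named in the text, each point being 1 array minus 1 array. Amh, Cst9 and Col9a3 lie to the male side at both stages, whereas Tm9sf3, Tent5c and the brighter probe set of Ptch1 lie on opposite sides at the 2 stages.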

How the data were processed

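Expression was measured on Affymetrix MG_U74Av2 arrays, 1 per group. Per the labels' protocols, gonads were kept frozen until PCR genotyping, and 8 µg of RNeasy-purified total RNA was made into biotinylated cRNA. The deposited log2 values of 12488 probe sets were made by the authors with MAS5, per the submitters' processing notes, with a version and scaling not given in the sources used here, and the scale was read from values between 2.36 and 14.96. In the deposited KO male E12.5 column, 14 cells hold date serial numbers over 20 and were set to missing, so its unit was treated as other than log2 until these were removed.

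Arrays were centred on the common median. GEO's platform annotation named 1 gene for 10855 probe sets, more than 1 for 396 and no gene for 1237, controls included; the RefSeq table held 10839 of the single-gene ones. Control, X- and Y-linked (383) probe sets and those above the floor on fewer than 2 arrays were left out. limma 3.58.1 in R 4.3.3 was fitted with sex and genotype as terms and an intensity trend, with Benjamini-Hochberg adjustment at 0.05, two-sided; the prior degrees of freedom were infinite. The change between stages used all 8 arrays, with 3 residual degrees of freedom. Alternatives varied the floor, the filter, the scaling, the trend, the genotype term, the arrays and the probe set. Scripts were tested on simulated data. The number of arrays limits the precision. The p-values of the E12.5 fit rest on an error pooled over probe sets of like signal and carry no spread between embryos.

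Genes were named by a rule: 5 markers (Amh, Cst9, Aard, Fst, Irx3), the 15 passing genes per direction with the widest smaller pair difference, up to 6 genes per list by the same rank, and Wnt4 with the sex-linked genes. Further list members, Stra8, Insl3 and Rspo1 among them, and second probe sets were chosen after their values were seen. The members and the 25 lists (485 genes) were chosen with earlier results of these data known.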

Additional observations from a re-analysis of the deposited data

Results flagged for a closer look

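The hybridisation controls, which are outside the comparison, were 0.79 higher on the male than on the female arrays at E12.5. The sex difference of 5446 of 8191 probe sets changed between the stages in the interaction test. Technical readings at E14.5 also went with sex, and their part in this count was not tested. Among named genes at least 1.5-fold apart in both genotypes at E12.5, 11 had the opposite sign in both E14.5 pairs with a change that passed. They were chosen for wide E12.5 differences, which also enter the change. The choice therefore favours a smaller or turned difference at E14.5, and the count is no test of reversal. No such count over all genes was set beside it. The change, E14.5 minus E12.5, was -2.22 for Tm9sf3, -2.19 for Tent5c, -2.00 for the brighter probe set of Ptch1, -1.19 for Col4a1, -1.10 for Gatm, -1.03 for Slc4a1 and -1.02 for Kcnk2. The second probe set of Ptch1 did not turn, with a change of 0.32 (adjusted p 0.116). The change was 1.84 for Sprr2d, 1.38 for Plcg2, 1.15 for Kyat3 and 0.95 for Aph1a. Gatm and Kcnk2 lay close to 0 at E14.5, at -0.041 and -0.032 and at -0.057 and -0.047 in the WT and KO pairs.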

How the results depend on the processing

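Counts of called probe sets depended on the fit. The 1925 calls became 2906 with the floor at the 20th percentile, 2 with no filter and 1092 with all 8 arrays. The 972 higher in males became 2 with no filter, 571 with all 8 arrays and 2397 without centring. The 953 higher in females became 1531 with the lower floor, 0 with no filter (1737 at an unadjusted p under 0.05 in both directions), 521 with all 8 arrays and 403 without centring. Leaving out any 1 of the 4 arrays left 0 calls in limma (lowest 0, highest 0), with 1700 to 2089 at an unadjusted p under 0.05. The counts past 1.5-fold in both genotypes, 85 and 24, became 133 and 52 with the lower floor, 203 and 7 without centring, and 205 and 76 in the KO pair alone; the WT pair alone gave 115 and 110. The stage change, 5446 calls, lay between 3994 and 6944 under every alternative run and between 4550 and 4955 without 1 array. Without 1 array the sex difference ranged from -1.98 to 0.61 for Irx3, from -1.39 to 0.21 for Wnt4 and from -1.01 to 0.37 for Igfbp2; the positive ends came without the WT female, and Igfbp2 was also at 0.17 without the KO male. Those fits have no genotype term and set unequal genotypes against each other; the female was higher in both pairs for each of these genes. Signs turned with the second probe set for Gstm2 (-0.22), Cxcl12 (-0.057), Col1a2 (-0.44), Dazl (0.035), Etv4 (0.33) and Junb (-0.36). The fits without centring and of single pairs were chosen after seeing the data. The causes were not tested. The main fit pairs the sexes by genotype, and without that term 1641 probe sets were called.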
